A study of Mus musculus with 2 samples.

Results

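Naive CD4+ T cells take on different helper fates, and each fate is tied to a small set of transcription factors. The 9 described here are Tbx21, Eomes, Stat4, Gata3, Rora, Maf, Ahr, Bcl6 and Prdm1, compared between T cells that lack Lamtor1 and wild-type T cells. They were found as the array probes whose annotated gene name, or a synonym of it, is one of these symbols, which gave 12 probes of the 39429 on the array and 9 genes of 31705 names. No probe was reached through a synonym. All 9 genes had a probe bright enough to be measured, among 14872 measured genes in all.

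The material was mouse CD4+ T cells of strain C57BL/6J in 2 groups, labelled Lamtor1-deficient (KO) and wild type (WT), and the labels give both the same culture. Cells positive for CD4 and CD62L were sorted magnetically from spleen and cultured over 5 days on antibodies to CD3 and CD28. The medium held 1 ng/ml rhTGFβ, a factor known to induce regulatory T cells, and 50 ng/ml IL-2. No cytokine that directs Th1 or Th2 differentiation is named as added. One RNA extract per genotype was hybridised on 2 two-colour arrays, with KO in the red dye Cy5 on one and in the green dye Cy3 on the other, and both arrays are named as the same biological replicate. How Lamtor1 was deleted, in which cells, the age of the mice and the number of mice per extract are not given in the sources used here, and the extraction text speaks of naive cells, so that the RNA comes from the cultured cells is an assumption.

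With 1 extract per genotype there was no test and there is no p-value. Each ± is the SD between the dye-swapped arrays (technical SD), which covers labelling and hybridisation only. A gene was called higher or lower when both arrays put it 2-fold or more (a log2 ratio of KO over WT past 1) to the same side. It counted as measured when, in KO or in WT RNA, the scanner software marked its probe as well above background on each array. By this rule 366 of 14872 measured genes (2.46%) were called higher and 1024 (6.89%) lower in the KO extract. The median technical SD over all measured genes was 0.11 and their median log2 ratio was −0.02. Lamtor1 itself stood at −1.95 ± 0.03, and whether its probe lies in the deleted part is not known here.

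Tbx21 encodes T-bet, which directs the Th1 fate and interferon-γ production, and Eomes is its T-box relative, prominent in cytotoxic lymphocytes. Stat4 carries the IL-12 signal that promotes Th1 cells. Gata3 directs the Th2 fate, and Rora, Maf and Ahr act in Th17 cells, while Maf and Ahr also act in IL-10-producing and regulatory T cells. Bcl6 directs follicular helper (Tfh) cells, and Prdm1 encodes Blimp-1, a repressor found in effector cells. Bcl6 and Blimp-1 are known to repress each other's genes.

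The probes are 60-base oligonucleotides, and the reading of a gene depends on which stretch of its transcript the probe takes. The first 30 bases of 8 probes follow, 5′ to 3′ and in lower case throughout, for the genes called higher or lower, for the second probes of Maf and Ahr, whose readings differed from the first, and for Prdm1, whose probe has an unusual start.

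Maf, probe 1: tgggtatgtgtagttcttgctataccatgg
Maf, probe 2: gaacaagccttggtttacattagaataacg
Ahr, probe 1: ccttgctgtcctttaaactgttacttgctt
Ahr, probe 2: ttagattttgtcagttgtttacaagttcct
Bcl6, probe 1: cagggtttggctgtgtctaaactgcattag
Stat4, probe 1: agaaggaagcagatgaaactggagagtgtt
Tbx21, probe 1: gaggggggaggctatttattgtagagagtg
Prdm1, probe 1: gttggttggtttgtttgtttgttttttcct

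In build mm9, as the scanner files give it, Maf probe 1 lies on the minus strand of chromosome 8 at 118227736 to 118227795, and probe 2 at 118207273 to 118207332 on the same strand, 20463 bases away. The RefSeq model of Maf (GRCm38.p6, used for its length only) spans 3642 bases, less than the distance between its probes. Ahr probes 1 and 2 lie 5799 bases apart on chromosome 12 (36182724 to 36182783 and 36188523 to 36188582), and the Eomes probes 764 bases apart on chromosome 9 (118394425 to 118394484 and 118395189 to 118395248). The single probes lie on chromosome 16 for Bcl6 (23965160 to 23965219), chromosome 1 for Stat4 (52163802 to 52163861), chromosome 11 for Tbx21 (96959417 to 96959476), chromosome 10 for Prdm1 (44157089 to 44157148), chromosome 2 for Gata3 (9779551 to 9779610) and chromosome 9 for Rora (69226774 to 69226833). None of the 9 genes lies on chromosome 7, where Lamtor1 is. Which exon or untranslated region each probe reads was not analysed here. GC content ran from 35% to 43.3%, and the longest run of bases that 2 of the 12 probes shared was 13. The Prdm1 probe opens with 27 bases that are all G or T, as do 0.0304% of the 60-base probes on the array, and its specificity was not tested.

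Maf, Ahr and Bcl6 were called higher and Stat4 and Tbx21 lower in the KO extract, which is 3 of 9 members (33.3%) higher against 2.46% of all measured genes, and 2 of 9 (22.2%) lower against 6.89%. The members were picked with results of these data known, so these shares describe the members only. Gata3, Eomes and Rora lay above 0 and Prdm1 below 0 on both arrays without reaching 2-fold on both. The technical SDs of the 9 ran from 0.001 for Rora to 0.35 for Gata3. In bulk RNA, fewer cells of a type cannot be told apart from less RNA per cell, here and below.

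**Figure D1:**
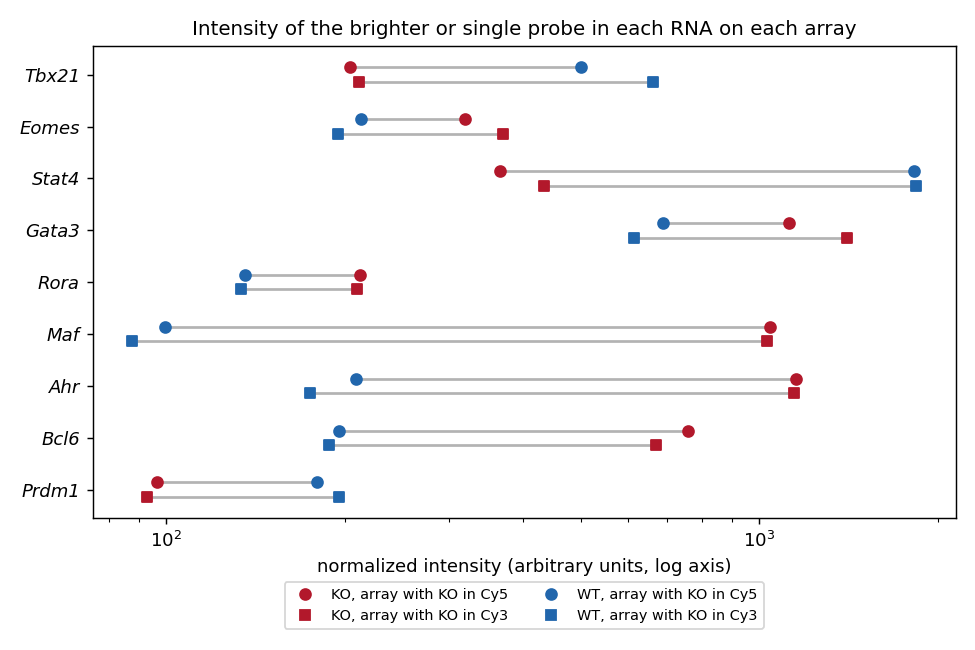
Normalized intensity (arbitrary units, log axis) of the brighter or single probe of each of the 9 genes in the KO RNA (red) and the WT RNA (blue), with circles for the array with KO in Cy5 and squares for the array with KO in Cy3. Red and blue lie on the same side of each other on both arrays for all 9 genes, with the widest gap for Maf, and for Stat4 among those lower in KO.

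Maf had the highest ratio of the 9. Its normalized intensity, the spot's brightness after background correction, loess and equalising of the arrays, was 1044 in KO against 99.4 in WT on the array with KO in Cy5, and 1029 against 87.4 with the dyes exchanged. The KO values were the higher ones on both arrays. They differed little between dyes after this equalising, with raw signals of 1168 in Cy5 and 660 in Cy3. The log2 ratios of 3.39 and 3.56 averaged 3.48 ± 0.12, an 11.1-fold difference, and 20 of the 14872 measured genes had a higher ratio. In WT the probe was well above background on both arrays but near it, with a raw signal of 77.6 over a local background of 35 in Cy3, so the size of the ratio depends on how background was treated. It was 5.09 with the scanner software's own processed signals and 3.14 with median centring in place of loess.

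Maf probe 2 was near background and gave a log2 ratio of 0.23 on each array to 2 decimals (0.225 and 0.232). Its normalized intensities were 85.2 in KO and 72.9 in WT on the first array and 80.1 and 68.2 on the second. A single array marked it well above background in KO and none did in WT, so neither a fold nor a lower bound is given. Lower bounds appear below only for probes well above background on both arrays in KO and on neither in WT. In such a bound the dim side is set, array by array, to the dimmest signal that still counts as well above background, or to the probe's own signal if that is higher. The size seen with probe 1 cannot be checked with a probe this dim, and the 2 probes are annotated to different transcript records.

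Ahr, the receptor for aryl hydrocarbons and dietary indoles, was also higher in the KO extract. Normalized intensity was 1155 in KO and 209.0 in WT with KO in Cy5, and 1143 in KO and 174.9 in WT with KO in Cy3. Log2 ratios of 2.47 and 2.71 averaged 2.59 ± 0.17, or 6.01-fold higher, and 47 measured genes had a higher ratio. Ahr probe 2 was not well above background in either RNA on either array, so it has no fold. Its log2 ratios were 0.28 and 0.26, and its normalized intensity in KO was 79.2 and 75.1. Both probes are annotated to the same transcript, so the high KO reading of Ahr rests on probe 1 alone.

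Rora encodes the nuclear receptor RORα, which acts in Th17 cells. It read 212.3 in KO and 135.7 in WT on the first array and 209.5 and 133.8 on the second. Its log2 ratio of 0.65 ± 0.001 was the most alike between arrays of the 9 and came to 1.56-fold, short of the 2-fold rule. With the processed signals it reached 1.15 and was called, and with median centring it was 0.46. The ratio of Maf exceeded that of Rora by 2.75 and 2.91 on the log2 scale on the arrays, and that of Ahr exceeded it by 1.82 and 2.06.

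Bcl6, a transcriptional repressor, was 3.71-fold higher in the KO extract. Its normalized intensity was 758.6 in KO and 195.7 in WT with KO in Cy5, and 669.7 and 188.3 with KO in Cy3. The log2 ratios were 1.96 and 1.83, with a mean of 1.89 ± 0.09. Median centring gave a mean of 1.52 at which Bcl6 was no longer 2-fold higher on each array. The processed signals gave 2.47.

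Prdm1, the counterpart of Bcl6, lay the other way. It read 96.5 in KO and 179.8 in WT on the first array and 92.8 in KO and 195.3 in WT on the second. The log2 ratios of −0.90 and −1.07 averaged −0.99 ± 0.12, just short of the rule of size on the array with KO in Cy5. One array did not mark the KO reading as well above background, so the low side is poorly measured, and the mean was −2.53 with the processed signals and −1.73 with a constant of 1 in place of 50 added to the signals after background correction. Bcl6 exceeded Prdm1 by 2.85 and 2.91 on the log2 scale on the 2 arrays.

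Stat4 had the lowest ratio of the 9. Normalized intensity was 364.9 in KO against 1822 in WT with KO in Cy5, and 434.3 against 1841 with KO in Cy3. All 4 readings were well above background. The WT readings were alike in both dyes only after normalization, with raw signals of 1624 in Cy3 and 3105 in Cy5. Log2 ratios of −2.32 and −2.08 averaged −2.20 ± 0.17, or 4.60-fold lower, and 114 of the 14872 measured genes had a lower ratio.

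Tbx21 was also lower in the KO extract, and Eomes was not. Tbx21 read 204.4 in KO and 500.7 in WT on the first array and 211.2 and 662.9 on the second. After normalization the KO readings were thus close together and the WT readings further apart. The log2 ratios were −1.29 and −1.65, with a mean of −1.47 ± 0.25, a 2.77-fold difference. At 3-fold on each array, Tbx21 was no longer called and Stat4 was.

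Eomes probe 1 read 318.4 in KO and 212.7 in WT with KO in Cy5, and 370.1 and 195.1 with KO in Cy3. Its log2 ratios of 0.58 and 0.92 averaged 0.75 ± 0.24, above 0 on both arrays and below 2-fold on each. Eomes probe 2 was well above background in KO on 1 array and in WT on neither. Its log2 ratios were 0.12 on both, and neither a fold nor a lower bound is given. The T-box pair therefore lay apart by 1.87 and 2.57 on the log2 scale on the arrays.

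Gata3 read 1122 in KO and 689.2 in WT on the first array and 1409 and 614.8 on the second. The log2 ratios of 0.70 and 1.20 averaged 0.95 ± 0.35, with the array with KO in Cy3 past 2-fold and the other not. This was the widest gap between arrays among the 9. The mean was 0.44 with median centring and 1.13 with the processed signals.

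**Figure D2:**
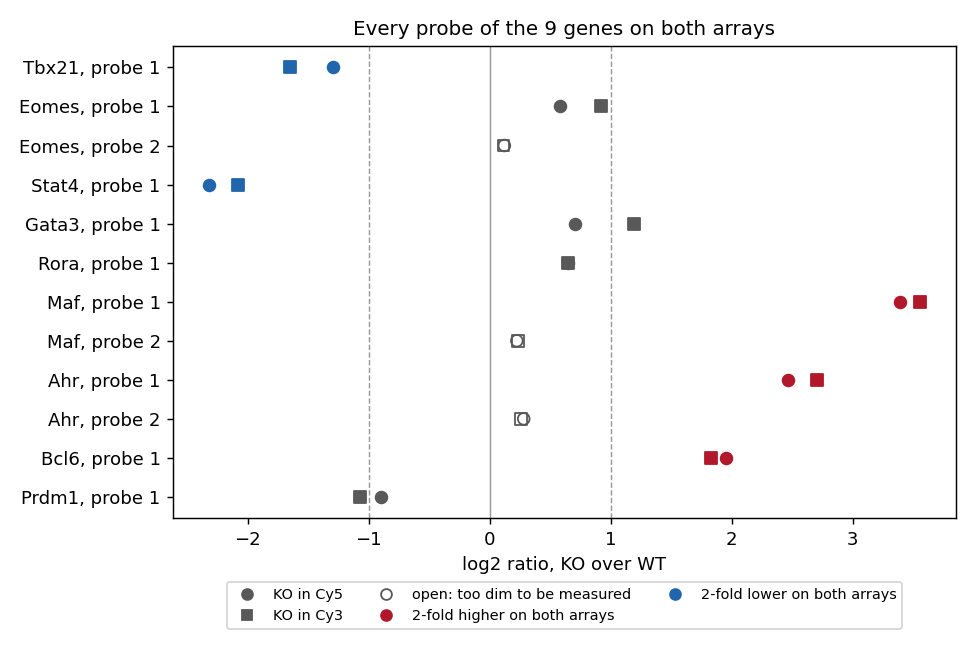
Log2 ratio of KO over WT for each of the 12 probes on the array with KO in Cy5 (circles) and in Cy3 (squares), with dashed lines at 2-fold in each direction and open symbols for the 3 probes too dim to be measured. The second probes of Eomes, Maf and Ahr are the open ones and sit between 0.12 and 0.28, while the first probes of Maf and Ahr read 2.47 or more.

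Each ratio can be placed among those of the 14872 measured genes. The ratios of Gata3, Eomes and Rora, none of them called, were exceeded by 488, 773 and 1130 genes, and that of Prdm1 was undercut by 1189. That of Tbx21 was undercut by 573 and that of Bcl6 exceeded by 90. The pairs set side by side above (Maf and Ahr with Rora, Bcl6 with Prdm1, Tbx21 with Eomes) were picked by hand after these values were known.

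**Figure D3:**
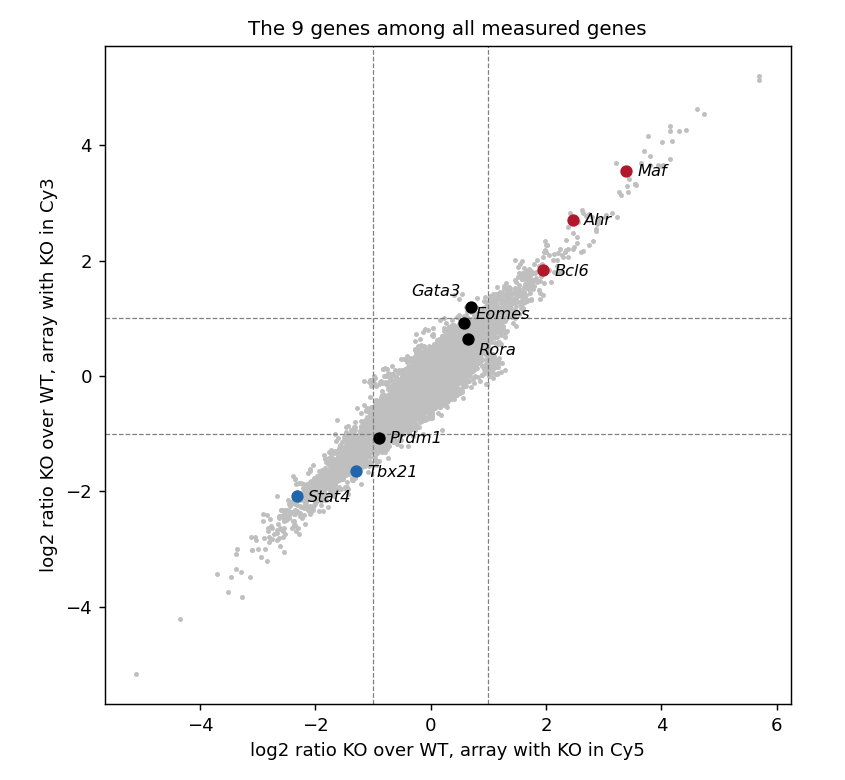
Log2 ratio of KO over WT on the array with KO in Cy5 (x) against the array with KO in Cy3 (y) for the 14872 measured genes (grey) and the 9 factors (red, called higher; blue, called lower; black, neither), with dashed lines at 2-fold. Maf, Ahr and Bcl6 lie in the upper right corner region and Stat4 and Tbx21 in the lower left. Gata3 and Prdm1 each pass a line on 1 array only.

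Genes known as targets, partners or inducers of the 9 were followed through lists drawn up with earlier results of these data known, so each list is a description. Beside all list counts below, 2.46% of the 14872 measured genes were called higher and 6.89% lower. Under median centring 111 of them were called higher and 881 lower. For Ahr, 3 of 9 measured partners and targets were called higher and 0 lower (list median 0.15, against −0.02 for all measured genes). They were Tiparp, which encodes an ADP-ribosyltransferase that limits Ahr, at 1.53 and 1.48 on the arrays (2.84-fold), Ahrr, the Ahr repressor, at 1.24 ± 0.21, and the cytochrome P450 gene Cyp1a1. The Cyp1a1 probe was not well above background in WT on either array and was at least 2.51-fold higher in KO. All 3 are classical Ahr-induced genes. Arnt, the dimerisation partner of Ahr, stood at 0.15 ± 0.14, and the chaperone genes Hsp90aa1 (−0.52) and Hsp90ab1 (−0.36) were not called. Of the other induced genes on the list, Aldh3a1 was measured and not called (0.13 ± 0.05), and Cyp1b1, Nqo1 and Ugt1a6a were not measured. Under median centring Tiparp (1.12) was no longer called, and the list median turned to −0.07, where the median of the measured genes was itself −0.38.

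Genes that Th1 factors govern went both ways. Of 16 measured Th1 genes 3 were called higher and 2 lower (median 0.30). With median centring the list median was −0.11, where that of all measured genes was −0.38. Cxcr3, the chemokine receptor gene that T-bet induces, was lower at −1.39 ± 0.09, and the chemokine gene Ccl5 at −1.22 ± 0.26. Xcl1, which encodes a chemokine of cytotoxic lymphocytes, was higher at 4.03 ± 0.03, and Furin, which encodes a protease, at 1.38 ± 0.10. Under median centring Furin (0.92) was not called, and 1 gene of the list was higher and 2 lower. Ifng, the hallmark cytokine gene, stood at 0.98 ± 0.08 and was just short of the rule, with 0.93 and 1.04 on the arrays. It was called higher in 4 of 8 alternatives, with a value of 2.13 with the processed signals.

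Among 20 measured cytokine receptors and Jak kinases, 3 were called higher and 2 lower (median −0.07). Ifngr1, a chain of the interferon-γ receptor, was lower at −1.54 ± 0.06, while Ifngr2, its other chain, lay above 0 at 0.78 ± 0.20 and was not called. Il12rb1, the IL-12 receptor chain upstream of Stat4, was lower at −1.14 ± 0.13. With the median over its measured probes Il12rb1 was −0.86 and not called. Il12rb2 stood at −0.55, and the kinase genes Jak2 and Tyk2 of IL-12 signalling at −0.81 and 0.27, none of them called. Tgfbr1 (1.97 ± 0.23) and Tgfbr2 (1.75 ± 0.28), which encode the TGFβ receptor, and Il6ra (1.61 ± 0.14), which encodes the IL-6 receptor and is tied to Tfh and Th17 fates, were higher. Under median centring 0 genes of this list were higher and 2 lower.

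For Gata3, 2 of 8 measured Th2 genes were called higher and 1 lower (median −0.12). Cyp11a1, a steroidogenic enzyme gene active in Th2 cells, was higher at 2.26 ± 0.11 and the chemokine receptor gene Ccr8 at 1.48 ± 0.16, while Ccr4 was lower at −1.12 ± 0.09. Under median centring Cyp11a1 (1.90) remained called and Ccr8 and Ccr4 did not. Il4, the signature cytokine gene, Il5 and Il13 were not well above background in either RNA on either array. Il9 was at least 1.46-fold higher in KO, with WT not well above background, and was not called. With the processed signals and the series matrix (2.79 in both) and with an offset of 1 (1.475) Il9 was called higher.

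For Rora, Maf and Ahr, 0 of 5 measured Th17 genes were called in either direction (median −0.06). Il17a, Il17f, Il21, Il22 and Il10 were not well above background in either RNA, so these cytokines have no ratio here. Ccr6, a receptor gene of Th17 cells, stood at −0.06.

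For Bcl6, 2 of 15 measured Tfh genes and Bcl6 corepressors were called higher and 3 lower (median −0.17). Pdcd1, the gene of the inhibitory receptor PD-1, was higher at 1.07 ± 0.06, beside Il6ra. Sh2d1a, which encodes the adaptor SAP that Tfh cells need, was lower at −2.85 ± 0.06, the inhibitory receptor gene Btla at −2.22 ± 0.13 and the purine receptor gene P2rx7 at −1.14 ± 0.06. P2rx7 was −0.41 and not called with the median over its measured probes. Cxcr5, the receptor gene that brings Tfh cells to follicles, stood at 0.34 ± 0.06, and the corepressor genes Bcor and Ncor1 at 0.20 and −0.05. Under median centring 0 were higher and 2 lower.

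For Prdm1, 0 of 11 measured genes tied to Blimp-1 were called higher and 2 lower (median −0.18). Ctla4, an inhibitory receptor gene, was lower at −1.60 ± 0.34, and Il7r, the IL-7 receptor gene, at −1.02 ± 0.03, with 1 call left under median centring. Genes that Blimp-1 is known to repress lay near 0 or modestly off it, with Bach2 at −0.24, Tcf7 at −0.26, Id3 at 0.66 and Myc at −0.18. Il2 and Il10 were not measured.

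Of 32 other lineage transcription factors measured, 5 were called higher and 3 lower (median −0.11). Stat5a, which carries IL-2 signals, was higher at 1.73 ± 0.002, Ikzf4 at 1.72 ± 0.08, Foxp3, the master factor gene of regulatory T cells, at 1.67 ± 0.31, and Bhlhe40 at 1.57 ± 0.15. The fifth was Ikzf2, at 1.54 ± 0.29. Nfil3 was lower at −1.99 ± 0.23, Batf, a factor that Th17 and Tfh cells need, at −1.23 ± 0.08, and Zbtb7b, which commits thymocytes to CD4 T cells, at −1.03 ± 0.05. Zbtb7b kept its call in 4 of 8 alternatives and lost it with the processed signals and the series matrix (−0.99 in both), with an offset of 1 (−1.01) and with median centring (−1.63). Among the 4 that kept it, the single arrays could not undo a call, and the median over probes left its value unchanged. The remaining one was no background subtraction (−1.04). Stat3 (0.06) and Stat6 (0.63), the relatives of Stat4 for IL-6 and IL-4 signals, and Irf4 (−0.87) were not called. Under median centring, 0 of these factors were called higher and 2 lower, Nfil3 and Batf. All 5 higher factors stayed above 1 on average there, with Ikzf2 at 1.13 and Bhlhe40 lowest at 1.05.

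**Figure D4:**
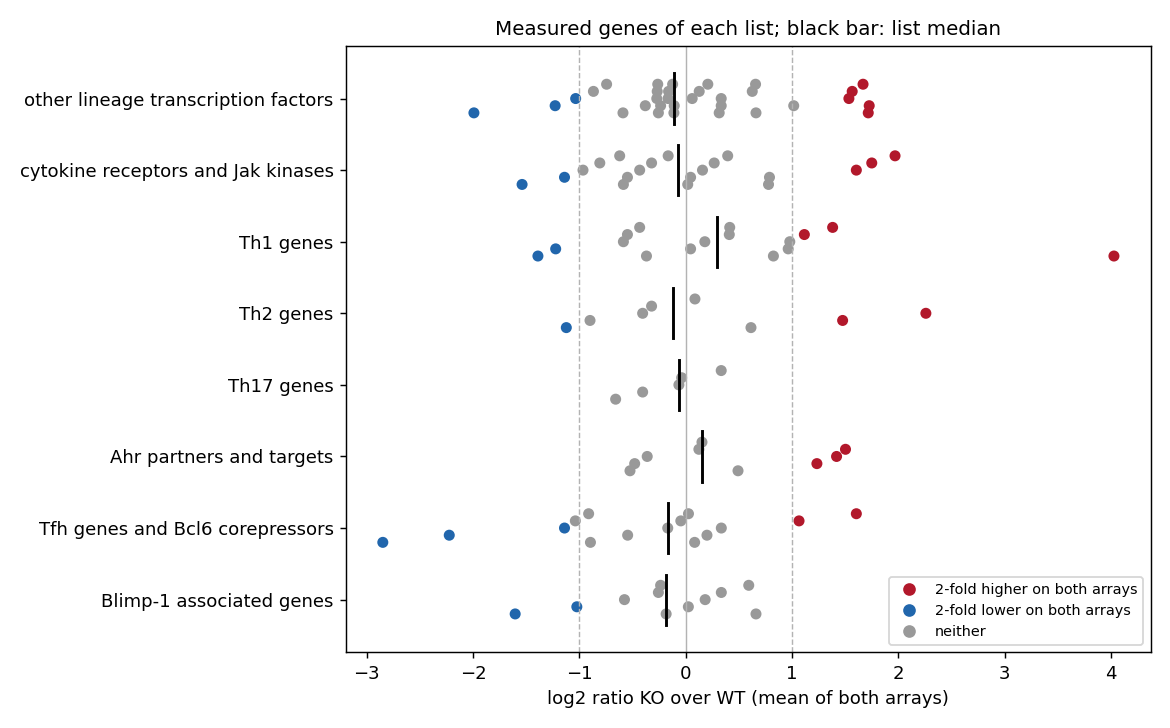
Mean log2 ratio of KO over WT for each measured gene of the 8 lists, in red where at least 2-fold higher on both arrays, in blue where at least 2-fold lower and in grey otherwise, with the list median as a black bar and dashed lines at 2-fold. The list medians lie between −0.18 and 0.30, and each list except the Th17 and Ahr lists holds genes called lower.

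Several of the 9 factors are also expressed by other lymphocytes and by myeloid cells, so their markers were read on the same arrays. The T cell genes Cd3e (0.09), Cd3d (−0.79), Cd3g (−0.49) and Cd28 (0.04) were well above background in both RNAs and not called. Cd4 was lower at −1.18 ± 0.05 and Cd5 at −1.12 ± 0.12. Cd4 was −0.99 and not called with the median over its measured probes, and Cd5 was not called with an offset of 1 (−1.08) or with median centring (−1.72), where the arrays did not both reach 2-fold. Among 11 markers of NK and innate lymphoid cells 8 were measured, 7 of them higher and 1, Il7r, lower (median 1.79, and 1.47 under median centring, where 6 were higher and 0 lower). Their summed normalized intensity was 6130 and 5760 in KO against 1900 and 1950 in WT on the 2 arrays. Fcer1g alone gave 3170 and 3060 of the KO sums, and Il7r 1070 and 1140 of the WT sums. Klrb1c, Klra8 and Tyrobp were not well above background in WT on either array, and Klrk1 was not measured. Fcer1g stood at 4.35, Klrc1 at 1.80, Klrd1 at 1.78 and Kit at 2.05, and the defining NK receptor gene Ncr1 was well above background in KO on 1 array and in WT on neither.

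Among 12 myeloid and dendritic markers 10 were measured, 3 higher (S100a9, S100a8 and Lyz1) and 1 lower (H2-Ab1), with a median of 0.66 (0.59 with dim readings at their bounds). Their summed intensity was 37400 and 36900 in KO against 23700 and 23800 in WT. The probes of Siglech (23000 and 24000 in KO, 12900 and 13700 in WT) and Itgam (9310 and 8280 in KO, 5530 and 5290 in WT), neither of them called, carried most of these sums, and Cst3 was lower in KO (2180 and 2090 against 3240 and 2780) without being called. The macrophage and monocyte genes Adgre1 and Cd14 were not well above background in either RNA. Of 4 CD8 T cell markers 0 were called (median −0.13, with Cd8a at 0.67 and Cd8b1 at −0.55), with sums of 829 and 810 in KO and 987 and 962 in WT. Of 6 B cell markers Cd79b alone was measured (0.62), and of 8 γδ T cell markers Sox13 alone (0.02), where 5 of the names were not matched to a probe. The part of other cells in the ratios of the 9 factors was not tested.

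Promoter sequence from RefSeq (GRCm38.p6) was matched for 7 of the 9 genes, Tbx21, Eomes, Stat4, Gata3, Rora, Bcl6 and Prdm1, with 9 annotated starts in all. The 250 bases before each start were searched on both strands for 3 motifs, picked after the ratios were known and after the promoter letters had been looked at, with the Bcl6 E-box and the Prdm1 GTAAACA already seen: the E-box CACGTG read by TFE and Myc factors, the Foxo site GTAAACA, and TTCNNNGAA, the site that Stat factors read. The motifs do not overlap one another in the windows below. The E-box occurred in 1 of the 9 windows and in 6.02% of 32851 RefSeq windows of this length, the Foxo site in 1 of 9 and 3.17%, and the Stat site in 2 of 9 and 7.02%. Both windows of Bcl6 held the Stat site, once before one start and 3 times before the other. Of all windows 0.0274% hold 3 or more, a cutoff equal to the count seen in that window, so this share is no independent support. The windows with a match follow, on the minus strand of each chromosome and 5′ to 3′, with matches in capitals. They show the members called or nearly called whose promoter letters hold one of these motifs.

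Bcl6, chromosome 16, 23988853 to 23989102: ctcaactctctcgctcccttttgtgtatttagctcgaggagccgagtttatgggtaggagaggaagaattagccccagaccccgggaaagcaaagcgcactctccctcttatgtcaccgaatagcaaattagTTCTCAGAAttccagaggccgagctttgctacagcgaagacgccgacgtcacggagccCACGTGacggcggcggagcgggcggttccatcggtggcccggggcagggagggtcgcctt
Bcl6, chromosome 16, 23981284 to 23981533: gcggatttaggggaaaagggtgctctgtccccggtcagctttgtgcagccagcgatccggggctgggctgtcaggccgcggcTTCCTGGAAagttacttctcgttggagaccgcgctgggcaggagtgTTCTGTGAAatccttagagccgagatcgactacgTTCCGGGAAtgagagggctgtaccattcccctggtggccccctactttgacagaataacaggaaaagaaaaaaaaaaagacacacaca
Prdm1, chromosome 10, 44458749 to 44458998: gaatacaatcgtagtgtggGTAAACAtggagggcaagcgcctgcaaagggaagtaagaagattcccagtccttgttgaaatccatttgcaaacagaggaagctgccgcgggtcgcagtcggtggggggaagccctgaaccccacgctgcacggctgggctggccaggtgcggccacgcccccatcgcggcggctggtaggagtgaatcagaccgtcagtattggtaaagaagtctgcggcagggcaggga

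The E-box of Bcl6 ends 55 bases before that start, and the Foxo letters of Prdm1 end 225 bases before its start. A match describes letters in these windows only, and since the motifs were picked with them in view, nothing is read from the counts.

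**Figure D5:**
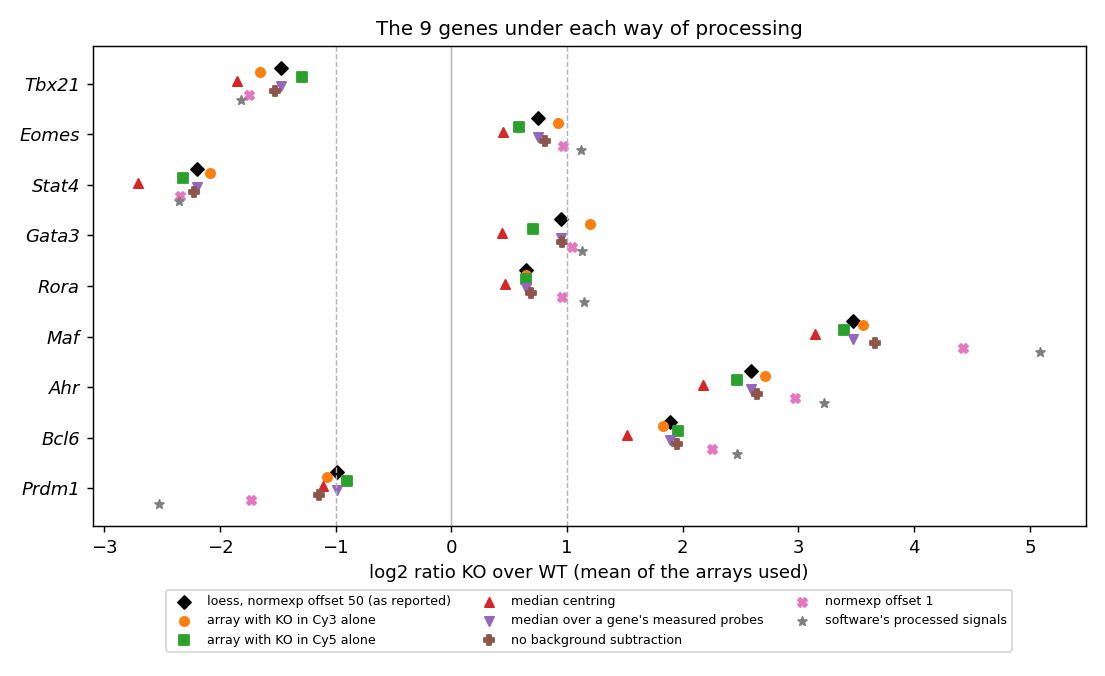
Log2 ratio of KO over WT of each factor under each way of processing, with the reported values as black diamonds and dashed lines at 2-fold. Each of the 9 genes stays on its side of 0 under every setting plotted, and Maf and Prdm1 spread most, from 3.14 to 5.09 and from −2.53 to −0.90.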

How the data were processed

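RNA of 1 KO and 1 WT extract was read on 2 dye-swapped Agilent arrays (400 ng of each cRNA, 65 °C, 17 h, per the labels). The deposited scanner files hold spot and local background intensity per channel, with Feature Extraction 10.7.3.1 named in the file headers and 10.5.1.1 in the submitters' processing notes. They also hold processed signals, background-subtracted and dye-normalized per the file headers. In the value table deposited beside them the unit is log10, and every value equalled the red over green log10 ratio that the scanner software wrote.

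Mean signals were corrected with normexp (offset 50, which shrinks ratios of dim probes) and loess within arrays in limma 3.58.1 (R 4.3.3), with control spots at weight 0 and outlier spots left out (none among the members). The labelled dyes set the direction, KO over WT, of each log2 ratio from the deposited intensities, and the arrays were averaged. No spot was saturated, and 43.7% to 51.7% of spots per channel were well above background. The number of arrays limits the precision. Channel intensities were further scaled with Aquantile. Probes were named through RefSeq accessions and symbols, and the brightest probe stood for a gene. All 12 member probes were reported, and in each list up to 4 called genes per direction and the gene written first, plus others named for a role after their values were seen. Alternatives were the processed signals, the series matrix, no background subtraction, an offset of 1, median centring, single arrays, the median over probes, other filters and other fold rules. Members, lists, member pairs and promoter motifs were chosen with earlier results of these data known. Plots used Python 3.11.15 and matplotlib 3.10.9. Some genes counted in the lists are not reported here by name.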

Additional observations from a re-analysis of the deposited data

How the results depend on the processing

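No paired analysis was possible because both arrays compare the same pair of extracts, so no test was made. None of the 9 genes changed direction under the 8 alternatives run on its ratio, and Tbx21, Stat4, Maf, Ahr and Eomes also kept their side of the 2-fold rule. Not all of the 8 could have differed. The median over measured probes could not, since each of the 9 had a single measured probe. A single array could not turn a direction or undo a call, since both arrays already gave each gene the same direction and a call needed both. Reading only the array with KO in Cy3, Gata3 (1.20) and Prdm1 (−1.07) were called. Rora was called with processed signals and with the series matrix (1.15 in both). Prdm1 was called with these (−2.53 in both), with an offset of 1 (−1.73) and with no background subtraction (−1.15). Bcl6 lost its call under median centring (1.52), and the cause was not tested for these shifts. The processed signals and the series matrix gave equal values for these genes because they hold the same ratios.

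Of the 9 members, 5 were higher and 3 lower by a 1.5-fold rule, and 3 higher and 1 lower by a 3-fold rule. Of all 14872 measured genes, 1009 were higher and 2008 lower by the 1.5-fold rule and 137 and 429 by the 3-fold rule. The processed signals and the series matrix values each gave 867 and 1613. An offset of 1 gave 609 higher, and the array with KO in Cy5 alone 556. Median centring gave 111 higher and 881 lower, so that 11.2% of all calls were higher against 26.3% as reported. The median log2 ratio of all measured genes was −0.38 there, against −0.02 as reported. The dim second probes of Eomes, Maf and Ahr and the KO reading of Prdm1 are limited by signal over background.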
